A study of Caenorhabditis elegans with 27 samples.

Results

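Whole Caenorhabditis elegans worms fed an RNAi clone against mrps-5 were compared with worms fed the empty vector, using 3 libraries of each group out of 27 libraries in 9 RNAi groups; the groups were taken from the library labels. The mrps-5 worms ate a mixture of 50% mrps-5 clone and 50% empty vector bacteria (libraries M1 to M3), and the control worms ate empty vector bacteria (G1 to G3). A second comparison set the mrps-5 libraries against replicates 2 and 3 of atfs-1 RNAi (I2 and I3, called the atfs-1 pair here), for which the labels give no share of the clone. All of these worms were wild-type N2, carried an hsp-6::GFP reporter according to the series' design text, grew from the egg on HT115 bacteria at 20 °C, and were frozen on day 2 at the L4 to young adult stage. RNAi by feeding reaches most tissues of the worm, and poly(A) RNA was prepared from whole animals, so fewer cells of a type and less RNA per cell cannot be told apart. The labels do not say whether the libraries of a group came from separate cultures, so the p-values measure the spread between libraries.

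MRPS-5 is a protein of the small subunit of the mitochondrial ribosome, which translates the few proteins that mitochondrial DNA encodes, all of them subunits of the respiratory chain and the ATP synthase. Lowering it unbalances the mitochondrial and nuclear encoded subunits of the same complexes and is a standard way to start the mitochondrial unfolded protein response in worms, in which mitochondrial chaperones and proteases such as hsp-6 and hsp-60 are transcribed. ATFS-1 is the transcription factor best known for driving that response: it enters the nucleus when its import into mitochondria fails. The study asked how the coactivator CBP-1 takes part in it, and the mrps-5 libraries are among its mitochondrial stress groups.

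The target was lower in every mrps-5 library. The mrps-5 gene (V:12563487-12565801 on the plus strand of WBcel235, with no other annotated gene inside) had 83.6, 86.7 and 79.8 CPM under mrps-5 RNAi, 104 and 99.4 CPM in the atfs-1 pair, and 101, 104 and 109 CPM on empty vector, where CPM is the gene's count scaled to a common library size. Every mrps-5 library lay below the other 5, with a log2 change of -0.33 ± 0.035 over empty vector (adjusted p = 2.45e-12) and -0.29 ± 0.039 over the atfs-1 pair (adjusted p = 1.15e-08). Here and below ± is the standard error of the log2 change and p-values are those of edgeR's quasi-likelihood test, adjusted by Benjamini-Hochberg over 16601 genes. Reads from the fed clone and from worm mRNA cannot be told apart in these counts. The atfs-1 gene, the target in the pair, had 103, 99.03 and 97.6 CPM under mrps-5 RNAi, 93.8 and 92.3 CPM in the atfs-1 pair, and 79.1, 77.3 and 77.2 CPM on empty vector. Its reads were thus not lower in the atfs-1 pair than on empty vector (log2 difference 0.26). That difference crosses the gene length profile described next, so the effect of the atfs-1 clone on its target cannot be read from it. The call of atfs-1 for mrps-5 over the pair (adjusted p = 0.036) was lost under several alternatives, DESeq2 and leaving out either library of the pair among them.

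The 8 libraries held 23913418 to 30439592 gene counts each, and a profile of gene length set the vector libraries apart from the rest. In genes with a summed exon length of 20 to 859 bases, the median log2 difference was -0.102 for mrps-5 over empty vector, 0.024 for mrps-5 over the atfs-1 pair and -0.12 for the atfs-1 pair over empty vector. In the longest genes, of 1972 to 56044 bases, the same medians were 0.089, -0.016 and 0.111. Atfs-1 replicate 1, which was left out of the fit, had medians of 0.022 and -0.031 over empty vector in those 2 classes. Against the vector alone, the gene length profile and the mrps-5 clone cannot be told apart; against the pair, the mrps-5 clone and the atfs-1 clone cannot be told apart. Among the mrps-5 libraries, M2 differed from M1 and M3 more than these did from each other (chi-square per degree of freedom 6.35 and 6.295, against 1.677), and counts that moved without it are given below.

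**Figure D1:**
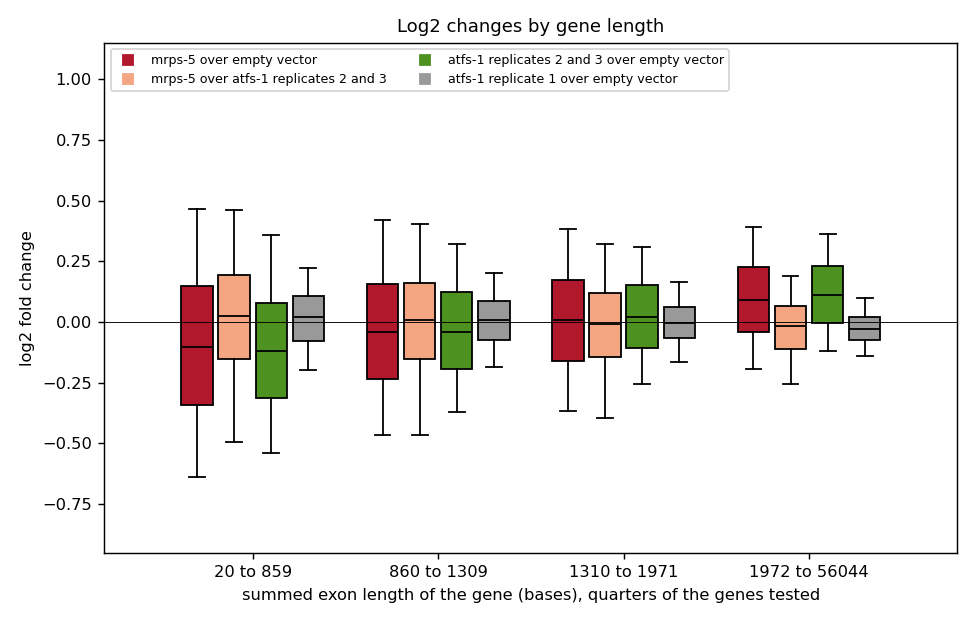
Log2 changes of the tested genes in 4 equal groups by summed exon length, x axis in bases, y axis log2 fold change. Boxes span the middle 50% of genes with the median as a line, and whiskers reach the 10th and 90th percentiles. The median of mrps-5 over empty vector climbs with length, from -0.102 to 0.089, as does that of the atfs-1 pair over empty vector, while mrps-5 over the atfs-1 pair stays between -0.016 and 0.024.

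Over empty vector, 6821 of 16601 genes (41.1%) were called at an adjusted p below 0.05, 3420 higher and 3401 lower. Over the atfs-1 pair, 3322 genes (20.0%) were called, 1599 higher and 1723 lower. Both comparisons use the same mrps-5 libraries. In the same direction in both stood 2160 genes (13.0%), 1065 higher (6.42%) and 1095 lower (6.60%), and these changes are said to hold; 229 genes were called in opposite directions (1.38%). Of the changes over empty vector, 31.67% held. Size and level went with it: among called genes with a log2 change of at least 1 in either direction, 344 of 529 held, and when the mean was at least 5 CPM in either group, 175 of 186 held. Among called genes with a smaller change, 1816 of 6292 held. Counts in the gene lists below are to be read beside the shares of all genes given here, and some lay near them.

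**Figure D2:**
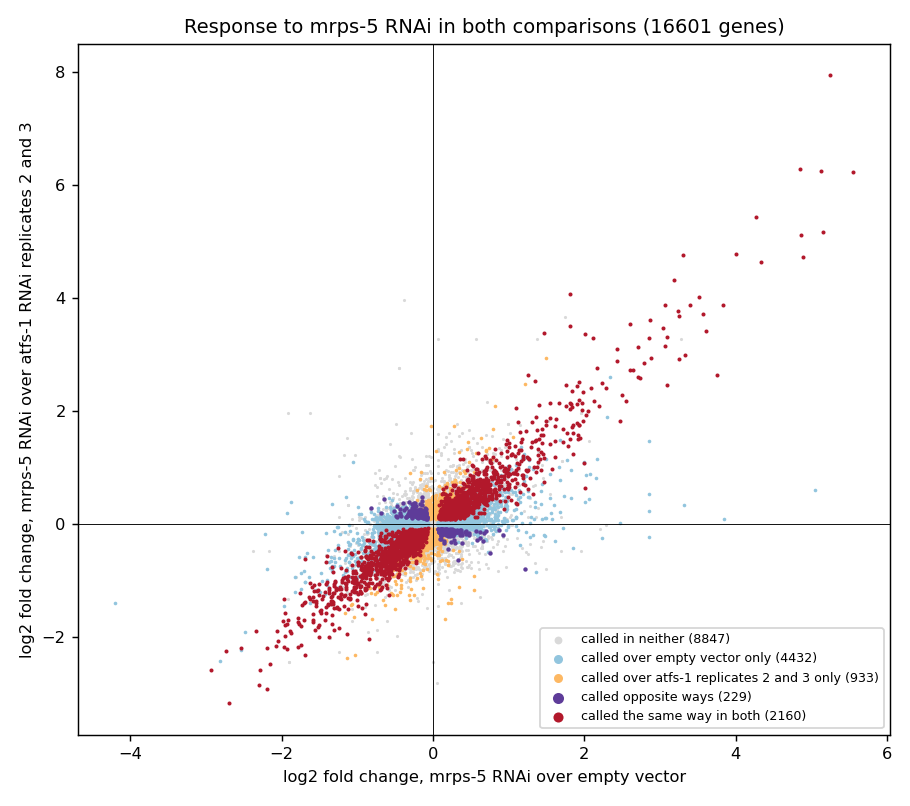
Each point is 1 of 16601 genes, placed by its log2 fold change for mrps-5 RNAi over empty vector (x axis) and over atfs-1 replicates 2 and 3 (y axis), and coloured by its calls. The 2160 genes called the same way in both (red) reach the largest values on both axes, with 145 of them at or above 1 and 138 at or below -1 in both comparisons, and the 4432 called over empty vector alone (light blue) spread along the horizontal axis.

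The mitochondrial chaperones and proteases rose almost as a whole. Of 12 members, 10 were higher and 1 was lower in both comparisons (over all genes 20.6% were higher and 20.5% lower over empty vector, and 9.63% higher and 10.4% lower over the atfs-1 pair). Their median log2 change was 0.498 over empty vector and 0.297 over the pair, beside 0.004 and -0.002 for all genes tested. The mitochondrial Hsp70 hsp-6, which folds and pulls in imported proteins and drives the study's reporter, had 1199, 1232 and 1220.1 CPM under mrps-5 RNAi, 876 and 861 CPM in the atfs-1 pair, and 718, 752 and 715 CPM on empty vector. The mrps-5 values were the highest and the vector values the lowest, with no overlap, and the log2 change was 0.74 ± 0.028 over empty vector (adjusted p = 2.00e-32) and 0.49 ± 0.032 over the atfs-1 pair (adjusted p = 2.19e-20). The chaperonin hsp-60 had 545, 508 and 497 CPM under mrps-5 RNAi, 431 and 429 CPM in the atfs-1 pair, and 252, 277 and 276 CPM on empty vector. It followed the same order without overlap, at 0.94 ± 0.033 over empty vector (adjusted p = 1.77e-32) and 0.27 ± 0.036 over the atfs-1 pair (adjusted p = 3.41e-08); the atfs-1 pair itself stood 0.68 above empty vector, and atfs-1 replicate 1, as a single library, was at -0.064.

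The partners of these chaperones rose too, several of them by similar amounts in both comparisons. The mitochondrial DnaJ protein dnj-10, an Hsp70 co-chaperone, had 111, 110.2 and 111 CPM under mrps-5 RNAi, 74.6 and 73.6 CPM in the atfs-1 pair, and 72.3, 73.0 and 71.3 CPM on empty vector. Only the mrps-5 libraries stood apart among these 8, at 0.62 ± 0.034 over empty vector (adjusted p = 1.27e-24) and 0.58 ± 0.038 over the atfs-1 pair (adjusted p = 1.87e-20). C34C12.8, the GrpE-like nucleotide exchange factor of mitochondrial Hsp70, changed by 0.51 and 0.62 over empty vector and the pair, and Y22D7AL.10, the GroES-like partner of HSP-60, by 0.21 and 0.39. Among the proteases, the inner membrane AAA protease spg-7 had 216, 222 and 219 CPM under mrps-5 RNAi, 162 and 165 CPM in the atfs-1 pair, and 134, 135 and 128 CPM on empty vector. Its mrps-5 libraries lay highest with no overlap, at 0.73 ± 0.029 over empty vector (adjusted p = 1.07e-31) and 0.42 ± 0.032 over the atfs-1 pair (adjusted p = 1.68e-17). The other inner membrane AAA protease ymel-1 changed by 0.48 and 0.24, the Lon protease C34B2.6 (lonp-1) by 0.37 and 0.26, and the matrix protease clpp-1 by 0.28 and 0.33. D2030.2 rose by 0.56 over empty vector, but its value over the pair was only 0.12 (adjusted p = 0.045), and this call was lost with DESeq2, other scalings or the stricter filter, and without I3, M2 or M3.

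A single chaperone fell. The mitochondrial Hsp90 trap-1 had 456, 493 and 477 CPM under mrps-5 RNAi, 599.9 and 574 CPM in the atfs-1 pair, and 683, 717 and 735 CPM on empty vector. Its order was reversed, lowest under mrps-5 RNAi and highest on empty vector without overlap, at -0.58 ± 0.044 over empty vector (adjusted p = 2.26e-11) and -0.30 ± 0.049 over the atfs-1 pair (adjusted p = 2.73e-05). K07A3.3 had 5.07, 6.47 and 5.72 CPM under mrps-5 RNAi, 5.42 and 6.27 CPM in the atfs-1 pair, and 5.62, 5.78 and 5.77 CPM on empty vector, with overlapping groups and no call. In a fit of all 27 libraries with a term for the 2 library sets (empty vector, cbp-1 and atfs-1 replicate 1 against all others, a term that only the atfs-1 replicates estimate), the changes over empty vector were 0.44 for hsp-6, 0.20 for hsp-60, 0.31 for spg-7, 0.22 for ymel-1, 0.22 for C34B2.6 and 0.40 for Y22D7AL.10, all still called. In that fit the values for trap-1, -0.22, and D2030.2, -0.017, were not called. The lists of nuclear and mitochondrial genes described next lost calls over empty vector in it too: 7 of 14 import genes, 4 of 16 tRNA synthetases and translation factors, 4 of 70 mitochondrial ribosomal proteins and 9 of 28 tricarboxylic acid and glyoxylate cycle genes were higher there.

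**Figure D3:**
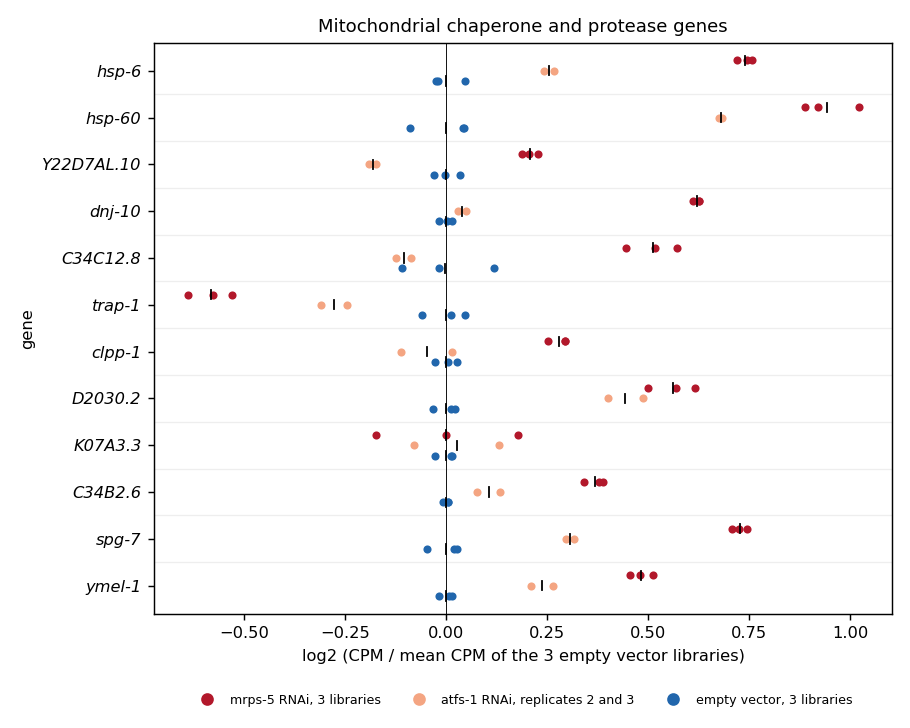
Levels of the 12 mitochondrial chaperone and protease genes, as log2 of each library's CPM over the mean CPM of the 3 empty vector libraries (x axis), with points for libraries and ticks for group means. The mrps-5 points lie to the right of both other groups in 10 genes, to the left in trap-1, and among them in K07A3.3.

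Of 12 regulators of the mitochondrial stress response, 5 were higher and 3 lower over empty vector, 2 higher and 1 lower over the atfs-1 pair, and 2 higher and 1 lower in both. The kinase gene sek-3 rose by 0.38 and 0.41. The other gene higher in both was atfs-1 itself, the target in the pair. With DESeq2, another scaling or a replicate block, and without I2, I3, M1 or M2, its call over the pair was lost. Only 1 regulator was then higher in both. The homeodomain gene dve-1, which acts with ATFS-1 in this response, had 14.0, 11.4 and 14.6 CPM under mrps-5 RNAi, 17.6 and 19.1 CPM in the atfs-1 pair, and 17.2, 14.9 and 15.8 CPM on empty vector. It was lower at -0.26 ± 0.071 over empty vector (adjusted p = 0.00213) and -0.45 ± 0.078 over the atfs-1 pair (adjusted p = 4.93e-06), with M2 the lowest of the 8 libraries; the call over empty vector was lost without M2 (log2 -0.173, adjusted p = 0.0581) and also once the set term was added (log2 -0.31, adjusted p = 0.111).

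Protein import, by which nuclear encoded proteins enter mitochondria, rose as well. Of 14 tested members, 13 were higher and 1 lower over empty vector, and 13 were higher over the atfs-1 pair, where edgeR called 0 lower (0 at an unadjusted p below 0.05, and 0 with DESeq2). The outer membrane receptor ZK370.8 (tomm-70) had 162, 161 and 154 CPM under mrps-5 RNAi, 109 and 112 CPM in the atfs-1 pair, and 94.0, 89.96 and 93.5 CPM on empty vector. Here the mrps-5 values were highest and the groups did not overlap, at 0.78 ± 0.032 over empty vector (adjusted p = 1.06e-30) and 0.53 ± 0.036 over the atfs-1 pair (adjusted p = 1.51e-19); with the library set term its change over empty vector was 0.44, still called. The processing peptidase subunit mppa-1 changed by 0.42 and 0.45, the inner membrane channel protein E04A4.5 (timm-17B.1) by 0.40 and 0.42 and the motor protein tin-44 by 0.29 and 0.37, each higher in both comparisons.

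Transcripts from mitochondrial DNA itself rose, in the respiratory complexes III, IV and V without exception. All 5 of these genes were called higher in both comparisons, with median log2 changes of 1.011 over empty vector and 0.656 over the atfs-1 pair. The ATP synthase subunit atp-6 had 1262, 1232 and 1281 CPM under mrps-5 RNAi, 641 and 649.9 CPM in the atfs-1 pair, and 603, 588 and 579 CPM on empty vector. Its mrps-5 values lay far above the other 5, with log2 changes of 1.09 ± 0.088 over empty vector (adjusted p = 6.22e-09) and 0.96 ± 0.10 over the atfs-1 pair (adjusted p = 5.91e-07). The cytochrome oxidase subunit ctc-2 had 1049, 1005 and 1051 CPM under mrps-5 RNAi, 602 and 584 CPM in the atfs-1 pair, and 551, 539 and 523 CPM on empty vector. Here too both other groups lay far below, at 0.94 ± 0.069 over empty vector (adjusted p = 1.39e-09) and 0.80 ± 0.078 over the atfs-1 pair (adjusted p = 2.22e-07). The remaining oxidase subunits ctc-1 and ctc-3 changed by 1.12 and 0.35 and by 1.01 and 0.66, and cytochrome b, ctb-1, by 0.95 and 0.62. For ctc-1 the pair already stood 0.76 above empty vector, and with the library set term its change over empty vector was 0.28; the values in that fit for ctb-1 and ctc-3 were 0.58 and 0.60, all 3 still called.

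Complex I genes of the mitochondrial genome were uneven. Of 7, 3 rose in both comparisons, 1 fell over empty vector alone, and 1 more was called higher over the atfs-1 pair alone. The gene nduo-4 had 669, 634 and 673 CPM under mrps-5 RNAi, 343 and 332 CPM in the atfs-1 pair, and 231, 224 and 209.7 CPM on empty vector. The 3 groups were separate, with the mrps-5 libraries highest, at 1.57 ± 0.049 over empty vector (adjusted p = 1.47e-17) and 0.96 ± 0.054 over the atfs-1 pair (adjusted p = 2.57e-12). For nduo-5 the levels were 474, 523 and 529 CPM under mrps-5 RNAi, 346 and 312 CPM in the atfs-1 pair, and 129, 128 and 122 CPM on empty vector. The order was the same, with the pair 1.38 above empty vector, at 2.01 ± 0.10 over empty vector (adjusted p = 3.87e-12) and 0.63 ± 0.11 over the atfs-1 pair (adjusted p = 1.83e-04). The last of them, nduo-1, had 311, 276 and 293 CPM under mrps-5 RNAi, 196 and 184 CPM in the atfs-1 pair, and 201, 190.0 and 172 CPM on empty vector. Only the mrps-5 libraries were high, at 0.64 ± 0.10 over empty vector (adjusted p = 4.29e-05) and 0.63 ± 0.12 over the atfs-1 pair (adjusted p = 5.38e-04). With the library set term nduo-4 changed by 0.81 and stayed called, and nduo-5 (0.44, adjusted p = 0.155) and nduo-1 (0.52, adjusted p = 0.0988) were not called.

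The complex I gene nduo-6 had 9.56, 12.1 and 11.3 CPM under mrps-5 RNAi, 9.21 and 6.57 CPM in the atfs-1 pair, and 16.3, 16.9 and 16.0 CPM on empty vector. The mrps-5 libraries lay below all vector libraries but not below the pair, at -0.58 ± 0.14 over empty vector (adjusted p = 0.00248) and 0.46 ± 0.18 over the atfs-1 pair (adjusted p = 0.0931), and the second value was called without I2, with no filter or in a fit of the compared groups alone. Adding the set term turned the value over empty vector to 0.13 without a call. The gene nduo-2 had 77.3, 120.3 and 88.0 CPM under mrps-5 RNAi, 58.8 and 51.2 CPM in the atfs-1 pair, and 76.5, 78.7 and 77.3 CPM on empty vector, with M2 highest. Its mrps-5 range reached into that of empty vector, and its call over the pair (log2 0.78 ± 0.23, adjusted p = 0.0209) was lost without M2, at 0.58 (adjusted p = 0.0993), without either library of the pair and in a fit of the compared groups alone. No call was made for nduo-3 (log2 -0.002 and 0.20) or ndfl-4 (0.042 and -0.33). Neighbouring genes on this compact genome overlap in the annotation, nduo-3 with nduo-5, nduo-6 with ndfl-4 and nduo-1 with atp-6, and the strand setting of the counting was not given in the sources used here, so the split of reads within such pairs is uncertain.

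Reads of the 2 mitochondrial ribosomal RNAs differed from each other. Poly(A) RNA was sequenced, so these reads, here and against cco-1 below, need not follow the total amount of either ribosomal RNA. MTCE.7 had 62.0, 63.6 and 56.7 CPM under mrps-5 RNAi, 25.04 and 23.8 CPM in the atfs-1 pair, and 27.8, 29.5 and 25.6 CPM on empty vector. Its read share was high under mrps-5 RNAi alone among these groups, at 1.14 ± 0.11 over empty vector (adjusted p = 6.62e-08) and 1.31 ± 0.13 over the atfs-1 pair (adjusted p = 2.30e-07). MTCE.33, named after its values were seen, had 17.9, 17.3 and 16.6 CPM under mrps-5 RNAi, 27.1 and 26.5 CPM in the atfs-1 pair, and 19.3, 16.47 and 16.51 CPM on empty vector. It was lower than the pair (log2 -0.64 ± 0.14, adjusted p = 0.00248), while the change over empty vector was -0.019 ± 0.13 with overlapping libraries.

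**Figure D4:**
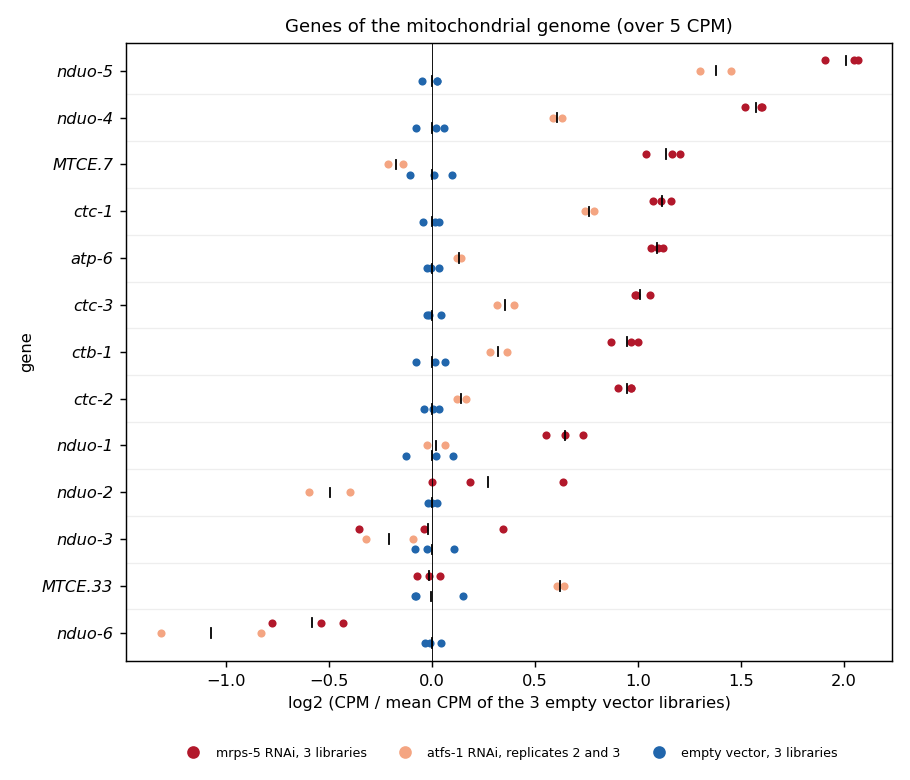
Levels of the genes of the mitochondrial genome with at least 5 CPM, as log2 of each library's CPM over the mean CPM of the 3 empty vector libraries (x axis), with points for libraries and ticks for group means. The mrps-5 points lie to the right of both other groups in 9 genes, from nduo-5 down to nduo-1, and the groups mix in nduo-3.

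The machinery that translates these messages changed in part. Of 16 mitochondrial tRNA synthetases and translation factors, 9 were higher and 2 lower over empty vector, 10 were higher over the pair, and 7 were higher in both comparisons; without I2, 6 were higher over the pair and 4 in both. The elongation factor Ts gene tsfm-1 had 104.9, 106 and 104 CPM under mrps-5 RNAi, 56.2 and 55.0 CPM in the atfs-1 pair, and 65.8, 65.9 and 65.6 CPM on empty vector. No other library came near these mrps-5 values, at 0.68 ± 0.034 over empty vector (adjusted p = 1.67e-26) and 0.92 ± 0.040 over the atfs-1 pair (adjusted p = 1.09e-29). The elongation factor G gene gfm-1 changed by 0.47 and 0.44 and the elongation factor Tu gene tufm-1 by 0.43 and 0.31, or 0.27 over empty vector with the library set term. The second Tu gene tufm-2 changed by 0.37 and 0.21, and its change over empty vector was not called with the library set term (0.18, adjusted p = 0.0594).

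The proteins of the mitochondrial ribosome did not move as a block. Of 70 genes, 14 were higher and 26 lower over empty vector, 17 higher and 1 lower over the atfs-1 pair, and 10 higher and 1 lower in both. Over all genes 20.6% were higher and 20.5% lower over empty vector, so the 14 lay near that share. Over the pair 9.63% of all genes were higher and 10.4% lower, and in both 6.42% and 6.60%. Without I3, 11 were higher over the pair and 6 in both. With the library set term 4 were higher and 1 was lower over empty vector. The single member lower in both was mrps-5. The small subunit gene mrps-14 had 63.1, 61.7 and 62.3 CPM under mrps-5 RNAi, 47.9 and 45.6 CPM in the atfs-1 pair, and 43.5, 44.8 and 48.3 CPM on empty vector. It was highest in the mrps-5 libraries without overlap, at 0.46 ± 0.040 over empty vector (adjusted p = 2.52e-15) and 0.42 ± 0.045 over the atfs-1 pair (adjusted p = 1.52e-11). The large subunit gene mrpl-11 changed by 0.27 and 0.30. The list's median was -0.07 over empty vector and 0.081 over the pair.

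Nuclear encoded subunits and assembly factors of oxidative phosphorylation, 49 genes, split evenly over empty vector, with 15 higher and 15 lower. With the library set term this split was lost: 17 were higher over empty vector and edgeR called 0 lower, with a median log2 change of 0.163. Over the atfs-1 pair 36 were higher, and edgeR called 0 lower (0 at an unadjusted p below 0.05, and 0 with DESeq2). In both comparisons 15 were higher, and 9 were lower over empty vector but higher over the pair, a count that came to 3 without I3, to 14 with no filter on low counts and to 18 in a fit of the compared groups alone. The complex I subunit gas-1 changed by 0.20 and 0.30, nduf-7 of the same complex by 0.26 and 0.21, the cytochrome c1 gene cyc-1 by 0.23 and 0.19, and cox-15, which makes heme a for cytochrome oxidase, by 0.21 and 0.36. With the library set term the changes of cyc-1 and cox-15 over empty vector were 0.15 and 0.32, both called. The complex II subunit sdha-1, chosen after its values were seen as an example of opposite calls, had 208, 207 and 204 CPM under mrps-5 RNAi, 184 and 179 CPM in the atfs-1 pair, and 213, 224 and 223 CPM on empty vector. The mrps-5 libraries lay below the vector libraries and above the pair, at -0.089 ± 0.030 over empty vector (adjusted p = 0.0117) and 0.19 ± 0.034 over the atfs-1 pair (adjusted p = 1.39e-05); its change over empty vector was 0.13 and not called once a library set term was added, and the call was also lost with upper-quartile scaling, with atfs-1 replicate 1 in the fit, and without G2 or G3.

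Genes of central carbon metabolism outside the respiratory chain followed. Of 28 tricarboxylic acid and glyoxylate cycle genes, 15 were higher and 3 lower over empty vector, 17 were higher and 1 lower over the pair, and 11 were higher in both comparisons. Mitochondrial aconitase, aco-2, had 1354, 1389.7 and 1359.5 CPM under mrps-5 RNAi, 1086 and 1056 CPM in the atfs-1 pair, and 974, 1023 and 979 CPM on empty vector. The order ran from mrps-5 RNAi at the top to empty vector at the bottom, at 0.46 ± 0.027 over empty vector (adjusted p = 8.74e-23) and 0.35 ± 0.031 over the atfs-1 pair (adjusted p = 5.20e-15). Citrate synthase, cts-1, changed by 0.32 and 0.35, the aconitase-like aco-1 by 0.42 and 0.40 and the isocitrate dehydrogenase idh-1 by 0.31 and 0.37. Of 22 glycolysis and gluconeogenesis genes, 11 were higher and 5 lower over empty vector, 12 were higher and 1 lower over the pair, and 7 were higher in both. The glyceraldehyde-3-phosphate dehydrogenase gpd-2 had 426, 399.9 and 409 CPM under mrps-5 RNAi, 231 and 228 CPM in the atfs-1 pair, and 276, 288 and 288 CPM on empty vector. Here the pair was the lowest group and the mrps-5 libraries the highest, at 0.54 ± 0.030 over empty vector (adjusted p = 4.49e-24) and 0.84 ± 0.034 over the atfs-1 pair (adjusted p = 6.57e-31); gpd-2 and gpd-3 (0.32 and 0.55) are near-identical copies, and reads may be split between them. Phosphoglycerate mutase, ipgm-1, changed by 0.49 and 0.61 and phosphoenolpyruvate carboxykinase, pck-2, by 0.42 and 0.23. Once the set term was added, the changes of gpd-3 and pck-2 over empty vector were 0.52 and 0.21.

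**Figure D5:**
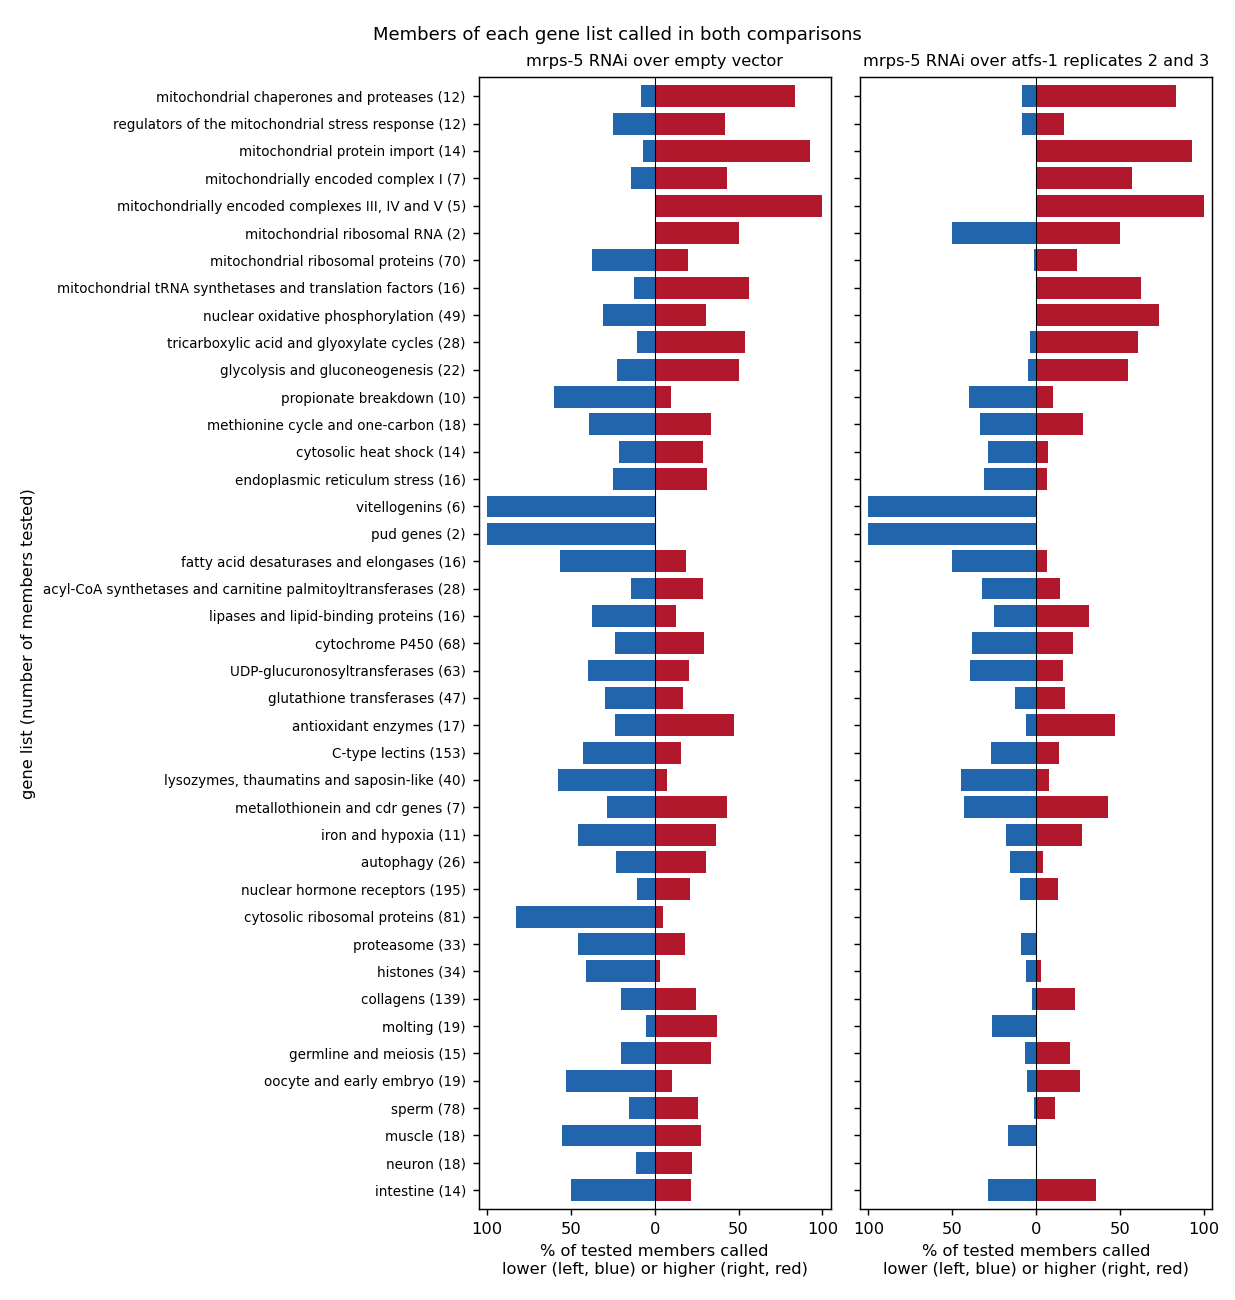
Share of the tested members of each gene list called lower (blue, leftward) or higher (red, rightward) for mrps-5 RNAi over empty vector (left panel) and over atfs-1 replicates 2 and 3 (right panel), in percent of the members tested, whose number stands in parentheses. Mitochondrial chaperones and proteases, protein import and the mitochondrially encoded genes of complexes III, IV and V point mainly to the right and vitellogenins to the left in both panels, mitochondrial ribosomal proteins point mainly to the left over empty vector and to the right over the pair, and the 67 of 81 cytosolic ribosomal protein genes that point to the left over empty vector have no counterpart on the right panel.

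The largest rises that held included a cytochrome P450 gene. The cytochrome P450 gene cyp-14A4 (X:13282043-13284197) had 61.5, 61.4 and 59.3 CPM under mrps-5 RNAi, 0.658 and 0.944 CPM in the atfs-1 pair, and 1.65, 1.69 and 1.83 CPM on empty vector. The 3 mrps-5 values were close together and far above the rest, at 5.13 ± 0.081 over empty vector (adjusted p = 2.42e-54) and 6.25 ± 0.11 over the atfs-1 pair (adjusted p = 5.81e-51). The log2 difference from empty vector was -1.11 in the pair itself and -0.85 in atfs-1 replicate 1, as 1 library with no test. B0205.13 had 79.7, 71.4 and 71.5 CPM under mrps-5 RNAi, 1.01 and 0.901 CPM in the atfs-1 pair, and 2.32, 2.52 and 2.87 CPM on empty vector. It showed the same pattern, at 4.86 ± 0.11 over empty vector (adjusted p = 7.70e-21) and 6.27 ± 0.15 over the atfs-1 pair (adjusted p = 1.13e-19), with a log2 difference of -1.42 between the pair and empty vector.

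Some other members of the cytochrome P450 family, which oxidise lipids and foreign compounds, rose with it. The gene cyp-33C8 had 121, 115 and 117 CPM under mrps-5 RNAi, 7.51 and 6.95 CPM in the atfs-1 pair, and 10.4, 10.6 and 9.82 CPM on empty vector. All of its mrps-5 values were far above those of the other groups, at 3.52 ± 0.047 over empty vector (adjusted p = 2.91e-58) and 4.02 ± 0.059 over the atfs-1 pair (adjusted p = 1.93e-55). The low genes cyp-13A12 and cyp-13A8 changed by 4.89 and 4.72 and by 4.87 and 5.12, with at most 1.03 CPM in any library of the other groups; with the library set term cyp-13A8 kept a log2 value of 3.27 but no call. The gene cyp-14A1 changed by 2.44 and 2.89. Of 68 cytochrome P450 genes tested, however, 15 were higher in both comparisons and 16 were lower in both.

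Several of the genes that changed most are known by sequence names alone. F22B3.7 had 16.6, 16.9 and 14.8 CPM under mrps-5 RNAi, 0.0774 and 0.0429 CPM in the atfs-1 pair, and 0.597, 0.330 and 0.306 CPM on empty vector. It was all but absent on empty vector and in the pair, and its change over empty vector was 5.25 ± 0.15 (adjusted p = 9.27e-39). F55G11.7 had 8.13, 8.19 and 7.53 CPM under mrps-5 RNAi, 0.0774 and 0.129 CPM in the atfs-1 pair, and 0.105, 0.0826 and 0.306 CPM on empty vector. The same held for it, with 5.55 ± 0.21 over empty vector (adjusted p = 1.10e-32). F17C11.13, which overlaps F17C11.7, rose by 3.57 and 3.71 over empty vector and the pair. Among the falls, F54F7.2 had 5.11, 5.24 and 5.47 CPM under mrps-5 RNAi, 24.0 and 23.9 CPM in the atfs-1 pair, and 20.1, 20.9 and 20.8 CPM on empty vector. It was lowest under mrps-5 RNAi without overlap, at -1.97 ± 0.078 over empty vector (adjusted p = 1.18e-31) and -2.18 ± 0.083 over the atfs-1 pair (adjusted p = 1.82e-32). Y57G11B.5 (-1.74 and -1.81) and K09C4.1 (-1.89 and -1.89) fell by similar amounts in both comparisons.

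UDP-glucuronosyltransferases, which attach sugar to lipophilic compounds, also split. The gene ugt-62 had 859, 848 and 857 CPM under mrps-5 RNAi, 66.3 and 67.2 CPM in the atfs-1 pair, and 85.9, 93.0 and 90.7 CPM on empty vector. It was abundant under mrps-5 RNAi and low in all 5 others, at 3.25 ± 0.036 over empty vector (adjusted p = 3.77e-59) and 3.68 ± 0.044 over the atfs-1 pair (adjusted p = 3.54e-57). The genes ugt-19 (3.24 and 3.77), ugt-2 (1.90 and 2.12) and ugt-61 (1.63 and 1.86) rose as well. Of the 63 tested, 10 rose and 22 fell in both comparisons. Among the falls was ugt-53, with 5.43, 5.28 and 5.18 CPM under mrps-5 RNAi, 22.1 and 22.7 CPM in the atfs-1 pair, and 21.3, 23.6 and 20.8 CPM on empty vector; it lay lowest in the mrps-5 libraries without overlap, at -2.04 ± 0.084 over empty vector (adjusted p = 8.48e-31) and -2.07 ± 0.092 over the atfs-1 pair (adjusted p = 4.95e-29).

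Glutathione transferases and antioxidant enzymes moved less. Of 47 glutathione transferase genes, 7 rose and 6 fell in both comparisons, and without M1 3 fell. The gene gst-4, known as a target of the oxidative stress factor SKN-1, had 38.1, 37.5 and 38.5 CPM under mrps-5 RNAi, 23.9 and 25.5 CPM in the atfs-1 pair, and 18.9, 19.9 and 18.8 CPM on empty vector. Its 3 groups were separate, with the mrps-5 values on top, at 0.99 ± 0.053 over empty vector (adjusted p = 6.67e-25) and 0.62 ± 0.058 over the atfs-1 pair (adjusted p = 5.45e-14); its value with the library set term was 0.63, still called. The genes gst-13 (0.69 and 0.67) and gst-6 (0.81 and 0.95) were higher, and gst-10 (-0.90 and -0.84) was lower. Of 17 antioxidant genes, 6 rose and 1 fell in both. The risers included the mitochondrial thioredoxin trx-2 (0.36 and 0.51), the mitochondrial thioredoxin reductase trxr-2 (0.26 and 0.33) and the mitochondrial peroxiredoxin prdx-3 (0.13 and 0.20), and the faller was the peroxisomal catalase ctl-2 (-0.54 and -0.50). Their values over empty vector in the fit with the set term were 0.61 for trx-2 and 0.43 for trxr-2.

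Some of the cadmium-responsive cdr genes rose, and the metallothioneins mtl-1 and mtl-2, which bind heavy metals, fell. The gene cdr-2 had 129, 121 and 124 CPM under mrps-5 RNAi, 8.05 and 9.06 CPM in the atfs-1 pair, and 11.9, 11.1 and 12.4 CPM on empty vector. High values were found in the mrps-5 libraries alone among the 8, at 3.40 ± 0.050 over empty vector (adjusted p = 1.23e-55) and 3.87 ± 0.064 over the atfs-1 pair (adjusted p = 5.16e-53). The gene cdr-4 had 215, 211 and 209 CPM under mrps-5 RNAi, 19.9 and 22.9 CPM in the atfs-1 pair, and 26.05, 23.6 and 24.8 CPM on empty vector, a change of 3.09 and 3.31. The metallothionein mtl-2 had 48.4, 45.0 and 43.8 CPM under mrps-5 RNAi, 70.1 and 71.3 CPM in the atfs-1 pair, and 75.6, 76.8 and 79.5 CPM on empty vector. It was lowest in the mrps-5 libraries, at -0.76 ± 0.043 over empty vector (adjusted p = 1.13e-23) and -0.63 ± 0.048 over the atfs-1 pair (adjusted p = 2.21e-17), and mtl-1 changed by -0.48 and -0.57, with its call over the pair lost without I2. Of 7 members of this list 3 were higher and 2 lower over empty vector, and 3 higher and 3 lower over the pair. In both comparisons 3 rose and 2 fell, so not every cdr gene rose. Of 11 iron and hypoxia genes 3 rose and 2 fell in both: the ferritin gene ftn-2 (-0.57 and -0.42) and the metal transporter gene smf-3 (-0.70 and -0.69) fell, and cysl-1 (0.52 and 0.70) and nhr-57 (0.59 and 0.72), both tied to the hypoxia pathway, rose. With the library set term mtl-2 and ftn-2 fell by 0.50 and 0.34 over empty vector, and mtl-1 (-0.48) and nhr-57 (0.46) were not called.

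Genes of innate defence leaned downward. C-type lectins are secreted or membrane proteins, many of them induced by pathogens in the worm. Of 153 tested, 24 were higher and 65 lower over empty vector, and 16 rose and 37 fell in both comparisons. The lectin clec-4 had 72.9, 69.1 and 73.9 CPM under mrps-5 RNAi, 2.59 and 3.22 CPM in the atfs-1 pair, and 3.55, 3.303 and 3.78 CPM on empty vector. It stood far higher under mrps-5 RNAi than in any other of these libraries, at 4.34 ± 0.073 over empty vector (adjusted p = 1.89e-52) and 4.64 ± 0.091 over the atfs-1 pair (adjusted p = 1.56e-48). The lectins clec-66 (2.05 and 2.0002) and clec-265 (1.98 and 2.33) rose, and clec-190 (-1.79 and -2.18) fell. Of 40 lysozyme, thaumatin and saposin-like genes, 3 rose and 18 fell in both.

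The thaumatin-like gene thn-1 led the falls that held among genes of at least 5 CPM, ranked by the smaller of both changes. Its values were 4.998, 4.05 and 3.66 CPM under mrps-5 RNAi, 38.3 and 39.0 CPM in the atfs-1 pair, and 27.9, 27.4 and 27.5 CPM on empty vector. The pair was the highest group and the mrps-5 libraries were the lowest, at -2.69 ± 0.092 over empty vector (adjusted p = 9.22e-32) and -3.18 ± 0.10 over the atfs-1 pair (adjusted p = 1.66e-34). Atfs-1 replicate 1 was also above empty vector, by 0.83 on the log2 scale (1 library, no test), and the pair by 0.48. The lysozyme lys-4 (-1.79 and -1.67) and the saposin-like spp-2 (-1.38 and -1.43) fell, and the lysozyme lys-2 went up, with 256, 230.0 and 242 CPM under mrps-5 RNAi, 79.5 and 74.0 CPM in the atfs-1 pair, and 90.03, 94.9 and 96.2 CPM on empty vector. The mrps-5 libraries of lys-2 did not overlap the others, at 1.38 ± 0.034 over empty vector (adjusted p = 6.57e-42) and 1.66 ± 0.040 over the atfs-1 pair (adjusted p = 2.97e-42).

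Yolk protein genes fell. All 6 vitellogenins, the yolk proteins that the adult intestine makes for oocytes, were lower in both comparisons, with median log2 changes of -0.248 over empty vector and -0.444 over the atfs-1 pair. The gene vit-3 had 1694, 1729.5 and 1772 CPM under mrps-5 RNAi, 3643 and 3496 CPM in the atfs-1 pair, and 3470.1, 3678 and 3551 CPM on empty vector. Both other groups were far above its mrps-5 values, at -1.04 ± 0.056 over empty vector (adjusted p = 6.91e-12) and -1.04 ± 0.061 over the atfs-1 pair (adjusted p = 6.18e-11). The abundant vit-2 had 21360.0, 21355 and 22193 CPM under mrps-5 RNAi, 26882 and 26676 CPM in the atfs-1 pair, and 25141, 26186 and 25429 CPM on empty vector. It was lowest in the mrps-5 libraries without overlap, at -0.24 ± 0.035 over empty vector (adjusted p = 3.64e-08) and -0.31 ± 0.038 over the atfs-1 pair (adjusted p = 2.42e-09). The genes vit-4 (-0.51 and -0.59) and vit-6 (-0.22 and -0.29) fell too, vit-6 by 0.35 over empty vector with the library set term. Vitellogenin copies are similar in sequence, and reads without a unique alignment were not counted.

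The pud genes, a family of proteins raised in some long-lived mutants, had the lowest median of the lists examined, -2.226 over empty vector and -2.662 over the pair. Only 2 of 6 members passed the filter on low counts, and both fell in both comparisons. The gene pud-3 had 149.9, 126 and 144 CPM under mrps-5 RNAi, 779 and 782 CPM in the atfs-1 pair, and 603, 638 and 625 CPM on empty vector. Every mrps-5 value was far below the lowest of the others, at -2.15 ± 0.075 over empty vector (adjusted p = 1.65e-14) and -2.48 ± 0.080 over the atfs-1 pair (adjusted p = 1.02e-14). The gene pud-4 had 17.5, 13.1 and 16.3 CPM under mrps-5 RNAi, 109.9 and 117 CPM in the atfs-1 pair, and 80.5, 75.6 and 76.4 CPM on empty vector, a change of -2.30 and -2.85. The dehydrogenase gene dhs-26 had 10.1, 9.198 and 9.66 CPM under mrps-5 RNAi, 58.2 and 57.4 CPM in the atfs-1 pair, and 45.2, 48.3 and 48.7 CPM on empty vector, and changed by -2.29 and -2.58; it overlaps ZK816.1 in the annotation. In the pair, pud-3, pud-4 and dhs-26 stood 0.33, 0.55 and 0.29 above empty vector, and in atfs-1 replicate 1 0.26, 0.41 and 0.26.

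Genes of fat synthesis, storage and oxidation changed in both directions. Of 16 fatty acid desaturases and elongases, 9 were lower and 3 higher over empty vector, and 5 fell in both comparisons. The stearoyl-CoA desaturase fat-7 had 45.2, 55.5 and 48.2 CPM under mrps-5 RNAi, 120.5 and 127 CPM in the atfs-1 pair, and 133, 142 and 135 CPM on empty vector. Its mrps-5 libraries lay far below the other 5, at -1.47 ± 0.053 over empty vector (adjusted p = 2.39e-20) and -1.32 ± 0.059 over the atfs-1 pair (adjusted p = 8.19e-18). The palmitoyl-CoA desaturase fat-5 had 26.8, 31.9 and 28.7 CPM under mrps-5 RNAi, 44.7 and 47.5 CPM in the atfs-1 pair, and 79.3, 72.4 and 79.8 CPM on empty vector. It was lowest under mrps-5 RNAi and highest on empty vector, at -1.41 ± 0.085 over empty vector (adjusted p = 7.61e-11) and -0.67 ± 0.10 over the atfs-1 pair (adjusted p = 6.32e-05). By contrast the close relative fat-6, named after its values were seen, had 318, 330.5 and 302 CPM under mrps-5 RNAi, 317 and 334 CPM in the atfs-1 pair, and 339, 332 and 339 CPM on empty vector. Its mrps-5 libraries lay just below the vector libraries and overlapped the pair, at -0.087 ± 0.031 over empty vector (adjusted p = 0.0197) and -0.038 ± 0.035 over the atfs-1 pair (adjusted p = 0.506). The call over empty vector was lost with upper-quartile scaling, in both fits of all 27 libraries, and without G3 or M3. The elongases elo-6 (-0.55 and -0.29) and elo-5 (-0.35 and -0.23), which make branched-chain fatty acids, fell. The diacylglycerol acyltransferase dgat-2, an enzyme of fat storage that overlaps F59A1.11, changed by -1.98 and -1.72.

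In the other direction, the acyl-CoA synthetase acs-2, which feeds fatty acids into mitochondrial oxidation, had 68.4, 71.2 and 68.3 CPM under mrps-5 RNAi, 10.7 and 10.3 CPM in the atfs-1 pair, and 12.4, 9.33 and 11.2 CPM on empty vector. It was far higher under mrps-5 RNAi than in both other groups, at 2.65 ± 0.090 over empty vector (adjusted p = 1.95e-15) and 2.72 ± 0.11 over the atfs-1 pair (adjusted p = 4.73e-14). Of the 28 acyl-CoA synthetases and carnitine palmitoyltransferases 3 rose and 4 fell in both comparisons, among the falls acs-22 (-0.96 and -1.12), acs-3 (-0.54 and -0.78) and acs-5 (-0.28 and -0.24). Of 16 lipases and lipid-binding proteins 2 rose and 3 fell in both. The lysosomal lipase gene lipl-3 had 0.431, 0.440 and 0.740 CPM under mrps-5 RNAi, 2.94 and 3.52 CPM in the atfs-1 pair, and 4.60, 3.67 and 3.97 CPM on empty vector. It was low in all mrps-5 libraries, at -2.93 ± 0.21 over empty vector (adjusted p = 1.58e-18) and -2.58 ± 0.25 over the atfs-1 pair (adjusted p = 2.14e-13). The fatty acid-binding protein lbp-6 (0.29 and 0.69) rose, and its value over empty vector was 0.54 with the library set term.

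Amino acid and propionate metabolism changed by smaller steps. Of 18 genes of the methionine cycle and one-carbon metabolism, 5 rose and 4 fell in both comparisons, and without I2 2 fell. The cystathionine gamma-lyase cth-1, which makes cysteine, had 116, 125 and 115 CPM under mrps-5 RNAi, 72.8 and 71.4 CPM in the atfs-1 pair, and 89.6, 77.3 and 80.4 CPM on empty vector. Its mrps-5 libraries were highest and the pair lowest, at 0.52 ± 0.039 over empty vector (adjusted p = 9.42e-18) and 0.72 ± 0.045 over the atfs-1 pair (adjusted p = 1.17e-20). The relative cth-2 (0.51 and 0.53), the cystathionine beta-synthase cbs-1 (0.44 and 0.45) and the glycine cleavage gene gcst-1 (0.49 and 0.61) rose with it. Of 10 propionate breakdown genes 1 rose and 4 fell in both. That rise was lost with DESeq2, other scalings, no filter or a replicate block, and without I2, I3, M1 or M2. The acyl-CoA dehydrogenase acdh-1, a sensor of propionate and vitamin B12 status, had 172, 209.8 and 184 CPM under mrps-5 RNAi, 267 and 282 CPM in the atfs-1 pair, and 364, 305 and 328 CPM on empty vector. All mrps-5 values were below all others, at -0.82 ± 0.10 over empty vector (adjusted p = 2.58e-06) and -0.54 ± 0.11 over the atfs-1 pair (adjusted p = 0.00183). The genes Y38F1A.6 (hphd-1, -0.64 and -0.25), F09F7.4 (hach-1, -0.30 and -0.18) and ech-6 (-0.25 and -0.14) of the same pathway fell.

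Stress responses of other compartments come next. Of 14 cytosolic heat shock genes tested, 4 were higher and 3 lower over empty vector, and 1 rose and 1 fell in both comparisons, where 6.42% of all genes rose and 6.60% fell. The small heat shock gene hsp-17 had 45.1, 44.0 and 42.6 CPM under mrps-5 RNAi, 15.3 and 17.2 CPM in the atfs-1 pair, and 14.3, 12.59 and 12.9 CPM on empty vector. Its mrps-5 values were the only high ones of the 8, at 1.72 ± 0.062 over empty vector (adjusted p = 9.58e-25) and 1.44 ± 0.069 over the atfs-1 pair (adjusted p = 2.64e-20). The co-chaperone dnj-13 (-0.22 and -0.14) fell. The heat-inducible hsp-16.2, named after its values were seen, had 1.58, 1.67 and 1.52 CPM under mrps-5 RNAi, 2.24 and 2.32 CPM in the atfs-1 pair, and 0.878, 1.11 and 0.841 CPM on empty vector; it was higher than empty vector by 0.76 (adjusted p = 0.00251) and lower than the pair, at -0.52 (adjusted p = 0.0475), a call lost when any 1 library of either group was left out. Of 16 endoplasmic reticulum stress genes 1 rose and 3 fell in both. The riser was the kinase pek-1 (0.44 and 0.20), and the fallers were the disulfide isomerases pdi-2 (-0.49 and -0.16), pdi-3 (-0.16 and -0.14) and pdi-6 (-0.19 and -0.16). With the library set term pek-1, pdi-3 and pdi-6 were not called and pdi-2 fell by 0.17 over empty vector. The BiP gene hsp-4, also named after its values were seen, changed by 0.10 ± 0.027 over empty vector and 0.047 ± 0.030 over the pair (adjusted p = 0.311).

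Among nuclear hormone receptors, a large family of ligand-responsive transcription factors in worms, 22 of 195 rose and 10 fell in both comparisons. Over all genes 6.42% rose and 6.60% fell in both. The gene nhr-115 had 10.9, 10.1 and 9.75 CPM under mrps-5 RNAi, 1.32 and 1.07 CPM in the atfs-1 pair, and 1.76, 1.78 and 2.18 CPM on empty vector. The 5 other libraries had at most 2.18 CPM, and its change was 2.43 ± 0.11 over empty vector (adjusted p = 5.46e-28) and 3.095 ± 0.15 over the atfs-1 pair (adjusted p = 2.80e-27). The receptors nhr-210 (1.54 and 1.87), nhr-193 (1.41 and 2.105) and nhr-90 (0.97 and 1.30) rose as well. Of 26 autophagy genes 1 rose and 1 fell in both, the receptor sqst-1 (0.42 and 0.21), whose call over the pair was lost without I3, and epg-2 (-0.24 and -0.34).

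Lists that stand for tissues and stages gave the following. Over all genes 20.6% were higher and 20.5% lower over empty vector, and 6.42% rose and 6.60% fell in both comparisons. Of 14 intestine genes 3 rose and 3 fell in both comparisons. The gut protease cpr-1, of the cathepsin B family, had 305, 282 and 299 CPM under mrps-5 RNAi, 971 and 957 CPM in the atfs-1 pair, and 889.7, 876 and 887 CPM on empty vector. It was lowest in the mrps-5 libraries without overlap, at -1.58 ± 0.047 over empty vector (adjusted p = 1.72e-19) and -1.71 ± 0.051 over the atfs-1 pair (adjusted p = 3.14e-19). The relative cpr-6 (-0.90 and -0.92) fell, and the intestinal intermediate filament gene ifb-2 (0.41 and 0.41) rose. Of 18 muscle genes 5 were higher and 10 lower over empty vector, and 3 fell in both, tni-3 (-0.40 and -0.25), mup-2 (-0.20 and -0.10) and the pharyngeal myosin myo-1 (-0.14 and -0.16). The calls of tni-3 and mup-2 over the pair were lost without I2 (log2 -0.14 and -0.07), that of mup-2 also without M1 or M3, and over empty vector with the library set term tni-3 changed by -0.25, myo-1 by -0.28 and mup-2 by -0.091, the last not called. Of 18 neuron genes 4 were higher (2 without M1) and 2 lower over empty vector, and edgeR called 0 over the pair (3 at an unadjusted p below 0.05, and 0 with DESeq2).

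Collagens of the cuticle were higher in 34 and lower in 28 of 139 over empty vector, and higher in 32 and lower in 3 over the atfs-1 pair. Over all genes 20.6% were higher and 20.5% lower over empty vector, and 9.63% and 10.4% over the pair. In both comparisons 16 rose and 3 fell. The number higher over the pair was 14 without I2 and 15 without I3, where 8 and 9 rose in both, and in a fit of the compared groups alone it was 66, with 30 rising in both. The gene col-135 had 22.5, 22.3 and 24.3 CPM under mrps-5 RNAi, 65.1 and 65.4 CPM in the atfs-1 pair, and 54.4, 48.5 and 48.2 CPM on empty vector. Both other groups lay above its mrps-5 values, at -1.13 ± 0.060 over empty vector (adjusted p = 1.05e-20) and -1.5005 ± 0.064 over the atfs-1 pair (adjusted p = 3.63e-24), and col-76 (-0.48 and -0.54) fell while col-62 (0.66 and 0.66) and col-155 (0.78 and 0.44) rose. Of 19 molting genes, which cycle with larval stage, 7 were higher and 1 lower over empty vector (3 higher without G2, and 4 without M1 or M3), 5 were lower over the pair (3 without I3), and 1, noah-2 (-0.23 and -0.32, and -0.46 over empty vector with the library set term), fell in both. In the germline lists, 1 of 15 meiosis genes rose in both, 2 of 19 oocyte and early embryo genes rose and 1 fell, and 3 of 78 sperm genes rose and 1 fell, beside 6.42% and 6.60% of all genes. The meiosis gene was htp-3 (0.27 and 0.12), whose call over the pair was lost without I2, I3 or M1 and whose call over empty vector was lost with the library set term. The sperm gene that fell, ssp-37, had 2.52, 2.597 and 2.18 CPM under mrps-5 RNAi, 6.35 and 4.98 CPM in the atfs-1 pair, and 7.93, 8.75 and 8.06 CPM on empty vector, the lowest values being those under mrps-5 RNAi, at -1.76 ± 0.12 over empty vector (adjusted p = 8.55e-20) and -1.23 ± 0.14 over the atfs-1 pair (adjusted p = 2.20e-10).

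Some large groups of calls over empty vector were absent over the pair. Of 81 cytosolic ribosomal protein genes, 4 were higher and 67 lower over empty vector, with a median log2 change of -0.33. Over the atfs-1 pair edgeR called 0 (3 lower at an unadjusted p below 0.05, 0 with DESeq2, and 1 lower with other scalings), with a median of -0.028. In atfs-1 replicate 1 the median over empty vector was 0.056. The ribosomal protein gene rpl-37 had 56.3, 60.1 and 57.5 CPM under mrps-5 RNAi, 58.5 and 56.4 CPM in the atfs-1 pair, and 11.0, 10.5 and 9.67 CPM on empty vector. The mrps-5 libraries and the pair overlapped, and among the libraries listed, which leave out atfs-1 replicate 1, only the vector libraries were low. The log2 change of rpl-37 was 2.48 ± 0.058 over empty vector (adjusted p = 2.29e-44) and 0.011 ± 0.049 over the atfs-1 pair (adjusted p = 0.922). In the opposite direction rps-29 had 276, 258 and 270.3 CPM under mrps-5 RNAi, 284 and 274 CPM in the atfs-1 pair, and 599, 654 and 657 CPM on empty vector. Again the vector libraries stood apart among those listed, without atfs-1 replicate 1. The log2 change was -1.25 ± 0.059 over empty vector (adjusted p = 1.28e-12) and -0.057 ± 0.066 over the atfs-1 pair (adjusted p = 0.631). Proteasome genes were higher in 6 and lower in 15 of 33 over empty vector, and 3 were lower over the pair (1 without I2 or M3). Shares of all genes were 20.6% higher and 20.5% lower over empty vector, and 9.63% and 10.4% over the pair. Histone genes were lower in 14 of 34 over empty vector and in 2 over the pair.

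Other large changes over empty vector did not hold either. C53C7.5 had 16.36, 16.7 and 16.0 CPM under mrps-5 RNAi, 19.0 and 17.04 CPM in the atfs-1 pair, and 54.3, 50.8 and 57.6 CPM on empty vector. Among the libraries listed, which leave out atfs-1 replicate 1, only the vector libraries were high. The log2 change was -1.73 ± 0.051 over empty vector (adjusted p = 7.55e-39) and -0.14 ± 0.068 over the atfs-1 pair (adjusted p = 0.136). F58D5.5 (1.05 and 0.072), msp-10 (1.60 and 0.33), Y38F2AR.9 (-1.22 and -0.18), C08F11.12 (-1.26 and -0.059) and let-383 (-1.11 and -0.37) were likewise not called over the pair, although msp-10 was called there without M2 and, like Y38F2AR.9, in a fit of the compared groups alone. With the library set term the changes over empty vector were 0.10 for rpl-37, -0.036 for rps-29, -0.27 for C53C7.5 and 0.019 for F58D5.5. Ribosomal RNA was a matter of 1 library: rrn-3.1 had 964, 4804 and 763 CPM under mrps-5 RNAi, 1211 and 744 CPM in the atfs-1 pair, and 848, 691 and 769 CPM on empty vector. M2 alone was high, and without it the log2 change over empty vector was 0.16 (adjusted p = 0.765); the call was also lost when any 1 vector library was left out, with a replicate block, with the library set term and in a fit of the compared groups alone.

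The cco-1 clone, which targets a nuclear subunit of cytochrome oxidase and was also mixed with 50% empty vector, was a second mitochondrial stress clone, and its libraries fall in the same library set. Reads without a unique alignment, which were not counted, made up 8.003% to 8.298% of reads in the cco-1 libraries. In the mrps-5 libraries they made up 12.44% to 12.969%. Over cco-1, mrps-5 worms had 1350 genes higher and 1036 lower (8.13% and 6.24% of 16601, 14.4% in all). This comparison uses the same mrps-5 libraries as those above. Of the 12 chaperones and proteases 2 were higher and 1 lower, and hsp-6 had 1199, 1232 and 1220.1 CPM under mrps-5 RNAi, against 1168, 1181 and 1214 CPM under cco-1 RNAi. Those ranges overlapped, and the log2 difference was 0.035 ± 0.028 (adjusted p = 0.502). For hsp-60 the value was 0.15 ± 0.032 (adjusted p = 2.13e-04), a call that was lost when atfs-1 replicate 1 was added to the fit (adjusted p = 0.544), and for trap-1 it was 0.46 ± 0.044 (adjusted p = 8.48e-09).

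Genes of the mitochondrial genome separated the 2 clones. Of the 7 complex I genes 5 were higher under mrps-5 than under cco-1 RNAi, and of the 5 genes of complexes III, IV and V 4 were higher. Without M2 the calls of nduo-2 (adjusted p = 0.0785) and nduo-6 (0.0679) were lost, and with atfs-1 replicate 1 in the fit those of nduo-5 (0.187) and nduo-6 (0.0532). The call of nduo-2 was also lost without cco-1 replicate 3 and in a fit of the compared groups alone, and that of nduo-6 without cco-1 replicate 1 or 2. The gene ctc-2 had 1049, 1005 and 1051 CPM under mrps-5 RNAi, against 370.7, 381 and 333 CPM under cco-1 RNAi. All cco-1 values were far lower, at 1.52 ± 0.070 (adjusted p = 3.29e-12). The gene atp-6 had 1262, 1232 and 1281 CPM under mrps-5 RNAi, against 625, 634 and 551 CPM under cco-1 RNAi, at 1.06 ± 0.088 (adjusted p = 2.62e-08), and MTCE.7 had 62.0, 63.6 and 56.7 CPM under mrps-5 RNAi, against 21.0, 22.8 and 19.8 CPM under cco-1 RNAi, at 1.52 ± 0.11 (adjusted p = 5.13e-09). The member of the 5 without a call was ctc-1, with 3574, 3478 and 3695 CPM under mrps-5 RNAi, against 3429, 3298 and 3113 CPM under cco-1 RNAi, at 0.13 ± 0.049 (adjusted p = 0.0982); it was called higher with DESeq2, with no filter, in a fit of the compared groups alone and without cco-1 replicate 1.

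Many genes that fell stood higher under mrps-5 than under cco-1 RNAi. Of the 1095 genes that fell in both comparisons, 414 were higher and 133 lower in mrps-5 than in cco-1 worms. Over all genes 8.13% were higher and 6.24% lower. Counted over whole lists, fallers or not, all 6 vitellogenins and both pud genes were higher in mrps-5 worms. So were 21 of 40 lysozyme, thaumatin and saposin-like genes (3 lower) and 26 of 63 UDP-glucuronosyltransferases (9 lower). The gene vit-3 had 1694, 1729.5 and 1772 CPM under mrps-5 RNAi, against 220.0, 252 and 247 CPM under cco-1 RNAi. No values came near each other, at 2.85 ± 0.061 (adjusted p = 3.34e-18). The desaturase fat-7 had 45.2, 55.5 and 48.2 CPM under mrps-5 RNAi, against 5.24, 7.03 and 6.25 CPM under cco-1 RNAi, at 3.001 ± 0.084 (adjusted p = 6.34e-23), and thn-1 had 4.998, 4.05 and 3.66 CPM under mrps-5 RNAi, against 1.02, 1.58 and 1.16 CPM under cco-1 RNAi, at 1.77 ± 0.17 (adjusted p = 2.58e-12). Several rises were smaller as well: acs-2 had 68.4, 71.2 and 68.3 CPM under mrps-5 RNAi, against 157, 143 and 155 CPM under cco-1 RNAi, at -1.13 ± 0.062 (adjusted p = 1.53e-11), and hsp-17 had 45.1, 44.0 and 42.6 CPM under mrps-5 RNAi, against 162, 165 and 151 CPM under cco-1 RNAi, at -1.86 ± 0.044 (adjusted p = 1.42e-30). The gene hsp-16.2 had 1.58, 1.67 and 1.52 CPM under mrps-5 RNAi, against 16.7, 13.9 and 15.3 CPM under cco-1 RNAi, at -3.26 ± 0.11 (adjusted p = 1.07e-34). Among the strongest risers cyp-14A4 was somewhat higher under mrps-5 RNAi, at 0.29 ± 0.045 (adjusted p = 5.51e-07). The genes cyp-33C8, at -0.79 ± 0.032 (adjusted p = 4.97e-31), and clec-4, at -0.34 ± 0.044 (adjusted p = 7.28e-09), were lower.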

How the data were processed

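Poly(A) RNA of whole worms was sequenced on a BGISEQ-500, per the labels' protocols. The values the authors deposited are raw counts per gene, for which the submitters' processing notes name STAR 2.6.0a, HTSeq 0.10.0 and the build WBcel235; the strand setting was not given in the sources used here. Summary lines of the table (13.719% to 16.99% of reads in the 8 libraries compared, mostly reads without a unique alignment) stayed out of the library sizes and the tests. The common biological coefficient of variation was 2.877%.

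The members, comparisons and gene lists were chosen with earlier results of these data known. The test was edgeR 4.0.16 in R 4.3.3: filterByExpr with a minimum count of 10 kept 16601 of 46738 genes, TMM scaling was used, and robust quasi-likelihood fits had 1 coefficient per group over 26 libraries of all 9 groups, which share the estimate of spread. Atfs-1 replicate 1 was left out because it lay apart from replicates 2 and 3. Calls needed an adjusted p (Benjamini-Hochberg) below 0.05. Exon lengths and coordinates came from an Ensembl annotation of WBcel235. Alternatives were DESeq2 1.42.0, other scalings, filters and sets of libraries, a replicate block, a library set term and leaving out each library. The procedure was also run on simulated counts with planted changes. At 1.5-fold, 94% of these were recovered over empty vector and 92% over the atfs-1 pair. False calls made up 7.62% and 2.55% of the calls. Changes were planted only in genes above a minimum mean count, and all genes and libraries were drawn with the same spread. These rates therefore need not apply to genes with few counts or to a library such as M2. No gene length difference between the groups compared was simulated, so the run does not bear on that profile.

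Genes named are mrps-5, the 10 largest rises and falls that held with a mean of at least 5 CPM, all chaperones, proteases and mitochondrially encoded genes, up to 4 genes per other list with the smallest adjusted p that held, and the 5 largest rises and falls over empty vector that did not hold; any other is stated to be chosen after its values were seen.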

Additional observations from a re-analysis of the deposited data

How the results depend on the processing

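The counts over empty vector, 3420 higher and 3401 lower, came to 706 and 896 in a fit of all 27 libraries with the library set term, which only the atfs-1 replicates estimate. Of the genes that held, 527 of 1065 higher and 647 of 1095 lower were called the same way in that fit and 0 the opposite way. The term rests on atfs-1 replicate 1, a single library, against the pair. The fit also reuses the mrps-5 libraries and the pair, by which these genes were selected, so the agreement is no independent check. The same fit reversed the sign over empty vector of D2030.2 (log2 -0.017), nduo-6 (0.13), msp-10 (-0.19) and sdha-1 (0.13), none of them called there; the cause was not tested. With 1 library left out at a time, the counts ranged from 2958 to 3176 higher and 2967 to 3238 lower over empty vector, 1088 to 1387 and 1177 to 1579 over the atfs-1 pair, 1149 to 1278 and 782 to 893 over cco-1, and 810 to 1028 and 832 to 1066 called the same way over empty vector and the pair. Deviations of same-numbered mrps-5 and empty vector libraries were hardly correlated (0.002, 0.044 and 0.005). With so few libraries this does not settle whether the numbers pair them. With a replicate block 1035 genes were higher and 1061 lower in both comparisons, of which 1009 and 1045 are among those that held. With DESeq2 885 and 946 were called the same way. Other scalings and filters kept all of these counts within 1.5 times. The library sets coincide with the vector control, 2 libraries of the pair limit that comparison, and genes under 5 CPM held less often than the rest (169 of 343 with a log2 size of 1 or more).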

Other observations

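Among all genes 6.42% rose and 6.60% fell over both empty vector and the atfs-1 pair, and histone, oocyte and sperm genes were as follows. Of 34 tested histone genes (of 72 listed), 2 fell in both comparisons, his-59 (-1.26 and -0.43) and his-60 (-0.71 and -0.39). Neither was called over empty vector with the library set term, and both calls over the pair were lost without I2 or M3, that of his-60 also without I3 or M1. Of the 2 oocyte and early embryo genes that rose in both, oma-1, needed for oocyte maturation, had 371.3, 369.5 and 368 CPM under mrps-5 RNAi, 337 and 352 CPM in the atfs-1 pair, and 307, 322 and 324 CPM on empty vector. It was highest under mrps-5 RNAi, at 0.22 ± 0.030 over empty vector (adjusted p = 5.69e-09) and 0.10 ± 0.033 over the atfs-1 pair (adjusted p = 0.0214). Its call over the pair was lost without I2, M1 or M2, and its call over empty vector was lost with the library set term. The gene that fell, perm-4, which helps build the vitelline layer of the egg, had 956, 949.6 and 977 CPM under mrps-5 RNAi, 1185 and 1124 CPM in the atfs-1 pair, and 1176, 1198 and 1274 CPM on empty vector. It was lowest under mrps-5 RNAi, at -0.34 ± 0.082 over empty vector (adjusted p = 0.00241) and -0.26 ± 0.091 over the atfs-1 pair (adjusted p = 0.0482). That call over the pair was lost when any 1 library of either group was left out, and the call over empty vector was lost with the library set term. Of 78 tested sperm genes, those that rose in both were spe-5 (0.39 and 0.28), which overlaps ift-20, spe-15 (0.17 and 0.17) and msp-81 (0.28 and 0.29). The calls of spe-5 and spe-15 over empty vector were lost with the library set term, at 0.075 (adjusted p = 0.81) and 0.10 (adjusted p = 0.447). Over the pair, the call of spe-5 was lost without I3, that of spe-15 without M2, and that of msp-81 without I2, I3, M2 or M3.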
